A study of Mus musculus with 7 samples.

Results

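The genes of the mitochondrial ribosomal proteins were followed in RNA of mouse embryos from somatic cell nuclear transfer (SCNT). The members are all rows of the expression table whose symbol begins with Mrpl or Mrps and a digit, pseudogenes left out, which gave 77 of 24319 rows. All 77 had an FPKM (fragments per kilobase of transcript, scaled to the mapped fragments of the library) of at least 1 in 2 or more of the 7 libraries and entered the tests, which covered 12270 genes. By symbol, 48 belong to the large subunit (Mrpl) and 29 to the small subunit (Mrps). Mrps30 and Mrps18a carry small-subunit symbols although their proteins sit in the large subunit in known structures, and Mrps36 has since been assigned to the 2-oxoglutarate dehydrogenase complex. The label of the set therefore holds for its symbols with these exceptions.

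Mitochondria keep their own ribosome, which translates the few messages of mitochondrial DNA into core subunits of the respiratory chain and ATP synthase. Its RNAs come from mitochondrial DNA, while its proteins are encoded in the nucleus, made in the cytosol and imported. The oocyte supplies the mitochondria of the early embryo, and the mouse embryo begins large-scale transcription of its own at the 2-cell stage.

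SCNT places the nucleus of a somatic cell, here a cumulus cell, into an oocyte stripped of its chromosomes. Embryos were of the B6D2F1 strain and wild type, and embryos of every group, controls included, had been injected with mRNA of Kdm4a, a histone H3 lysine 9 demethylase. In FOC+K (2 libraries) the recipient oocytes were fresh, in CROC+K (3 libraries) they had been vitrified and warmed, and in CROC+K+M (2 libraries) they had been vitrified and warmed and the embryos were given 10 µM melatonin, an indole hormone with antioxidant action. Total RNA for each library came from 50 to 100 pooled embryos and had a RIN (RNA integrity number) above 7.0. All libraries are labelled as 2-cell embryos, while the treatment protocol, worded alike for each of them, speaks of blastocysts too. The labels call the samples of a group biological replicates without saying what separates them, so p-values measure the spread between these pools. In pooled embryos, fewer cells of a type and less RNA per cell cannot be told apart.

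1 library stood apart before any comparison. CROC+K+M 1 had a summed FPKM of 27884 over 21 trophectoderm and blastocyst markers, against 99.3 to 202 in the other 6. The fatty acid binding protein gene Fabp3 alone made up 24404 of it, and the other 20 markers summed to 3481, against 98.9 to 198. The same library had an FPKM of 6.97 for the trophectoderm regulator Cdx2, which is listed at 0 in the others. Aqp8 of that marker list is at 0 in all 7 libraries. Cldn6 of the list went the other way, at 5.13 in CROC+K+M 1 and 5.41 to 18.1 in the others. The 18 markers of cumulus cells summed to between 16.5 and 31.5 in every library. In CROC+K+M 1 the 19 markers of the transient 2-cell programme summed to 556, against 191 to 1748 in the other 6. Its 22 maternal oocyte markers summed to 27008, of which Dppa3 made up 18995, against 18492 to 43004. Both sums of CROC+K+M 1 thus lay within the range of the other libraries. Rn45s, the ribosomal RNA precursor, divided the libraries differently: it was at 1183, 1047 and 2114 in FOC+K 1, FOC+K 2 and CROC+K 1 and between 175.4 and 265.7 in the other 4. The steps between low FPKM values imply 3860000 to 6010000 fragments per library if 1 step is 1 fragment. Fold changes with melatonin are given with and without CROC+K+M 1, and the part that embryo stage or Rn45s has in them was not tested.

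The sequences just upstream of 4 members are shown. These genes were picked by hand, among those of smallest p with melatonin against CROC+K, as examples of certain motifs. The motifs are known from promoters of nuclear genes for mitochondrial proteins. Mrpl23, Mrps6 and Mrps24, of smaller p than Mrpl33 and Mrpl52 in limma, had none of the motifs marked here and are not shown. Mrps17 and Mrps18c, also of smaller p than both, do carry such motifs and were not picked. Nor was Mrps16, which carries such motifs and had a smaller p than Mrpl33. The display therefore does not link melatonin with motifs. The sequences come from RefSeq on the build GRCm38.p6, whereas the expression table was made on mm9, so no position is given for the expression values. Capitals mark CCAAT (or ATTGG on the other strand) in Mrps12, Mrpl33 and Mrpl42. They also mark the core GCGCATGC of the site of the factor NRF1 in Mrpl33. In Mrpl52 they mark CTTCCGG, the reverse complement of the ETS core CCGGAAG. Each runs 5′ to 3′ along the strand of its gene, at chr7:28741822-28741991 (minus strand), chr5:31613701-31613950 (plus), chr10:95501950-95502199 (minus) and chr14:54426659-54426908 (plus). The Mrps12 stretch holds 170 bases and ends where the first exon of the neighbouring gene Sars2 begins, and the others hold 250. Starts are those of RefSeq. In GENCODE M21 an exon of Mrpl33 itself begins 12 bases earlier, so that the marked NRF1 core, the first base of which lies 12 bases before the RefSeq start, falls within that exon.
Mrps12: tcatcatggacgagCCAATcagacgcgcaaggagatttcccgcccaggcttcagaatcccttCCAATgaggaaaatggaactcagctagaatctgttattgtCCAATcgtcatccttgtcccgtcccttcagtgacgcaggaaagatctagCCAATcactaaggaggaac
Mrpl33: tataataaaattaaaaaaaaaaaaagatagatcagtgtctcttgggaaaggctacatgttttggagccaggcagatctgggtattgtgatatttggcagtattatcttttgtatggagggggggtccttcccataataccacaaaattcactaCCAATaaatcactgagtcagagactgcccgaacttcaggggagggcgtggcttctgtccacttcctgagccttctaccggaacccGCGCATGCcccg
Mrpl42: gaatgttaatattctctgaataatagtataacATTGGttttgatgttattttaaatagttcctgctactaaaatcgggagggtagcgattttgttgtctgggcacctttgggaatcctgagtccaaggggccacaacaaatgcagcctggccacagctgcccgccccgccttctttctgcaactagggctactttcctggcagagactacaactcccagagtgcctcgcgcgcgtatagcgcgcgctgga
Mrpl52: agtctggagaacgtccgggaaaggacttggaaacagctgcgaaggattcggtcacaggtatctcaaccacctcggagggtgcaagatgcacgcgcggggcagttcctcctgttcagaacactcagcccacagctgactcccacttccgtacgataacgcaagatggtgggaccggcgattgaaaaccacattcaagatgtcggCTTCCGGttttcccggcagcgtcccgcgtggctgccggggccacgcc

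Of the 77 members, 68 had an entry in the RefSeq promoter table. Entries were not found for Mrpl4, Mrpl13, Mrpl15, Mrpl19, Mrpl38, Mrpl54, Mrps28, Mrps34 and Mrps35. Both strands of the 250 bases upstream of each start were searched, and a motif that contains a shorter one counts under both. The ETS core CCGGAAG, read by factors such as GABPA, occurred upstream of 17 members (25%), against 15.3% of the tested genes with an entry and 7.83% of all genes with one, a gene with several starts being counted once if any of them has the motif. The NRF1 core GCGCATGC occurred in 8 members (11.8%, against 5.23% and 2.56%), among them Mrpl33, Mrpl17 and Mrps18b. The full palindromic NRF1 site, the core followed by GC, was present in 3, Mrpl9, Mrpl32 and Mrpl39 (4.41%, against 1.89% and 0.877%). The CCAAT box was found in 25 members (36.8%), against 41.5% of the tested genes, and TATAAA in 5 (7.35%, against 8.86%). These matches describe letters in a window and not bound sites.

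Levels of the members, which FPKM makes comparable between genes per length, covered a wide range. Mrpl40, a protein of the central protuberance of the large subunit, had the highest mean FPKM over the 7 libraries, 293.6. Its values were 227.9 and 228.2 in FOC+K, then 242.1, 325.2 and 369.4 in CROC+K, and 350.8 and 311.3 in CROC+K+M. The FOC+K libraries were the lowest and close to each other, and the other 5 overlapped between groups. Next came Mrps21, the counterpart of bacterial S21, and Mrpl18, the counterpart of the 5S rRNA binding protein L18, both with a mean of 287.9, and Mrps14, a protein of the small-subunit head, with 269. Mrpl18 shares exonic sequence with the coding gene Tcp1 on the opposite strand in GENCODE M21, so its level may include reads of that gene if counting ignored strand.

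At the other end stood Mrpl19, with a mean FPKM of 1.82, and Mrps5, with 2.06. Mrps5, a protein of the decoding region whose lowered dose has been linked to longer life in mice and worms, was at 1.14 and 1.1 in FOC+K, then 2.31, 0.501 and 0.714 in CROC+K, and 8.44 and 0.244 in CROC+K+M. The 2 libraries of the melatonin group were thus the highest and the lowest of all 7. Mrpl17 and Mrpl39 followed with means of 5.39 and 5.62. At the implied depth the lowest Mrps5 value corresponds to about 4 fragments, so the order of such low genes is weakly determined.

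By library, the median FPKM of the 77 members was 34.2 and 37.7 in FOC+K, then 41.9, 28.9 and 27.7 in CROC+K, and 112 and 43.4 in CROC+K+M. CROC+K+M 1 lay far above the other 6, and the second melatonin library lay just above CROC+K 1. Over all genes tested the median ran only from 5.87 to 7.43. Members together held 0.714% and 0.79% of the summed FPKM in FOC+K, 0.894%, 0.54% and 0.549% in CROC+K, and 1.25% and 0.82% in CROC+K+M.

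**Figure D1:**
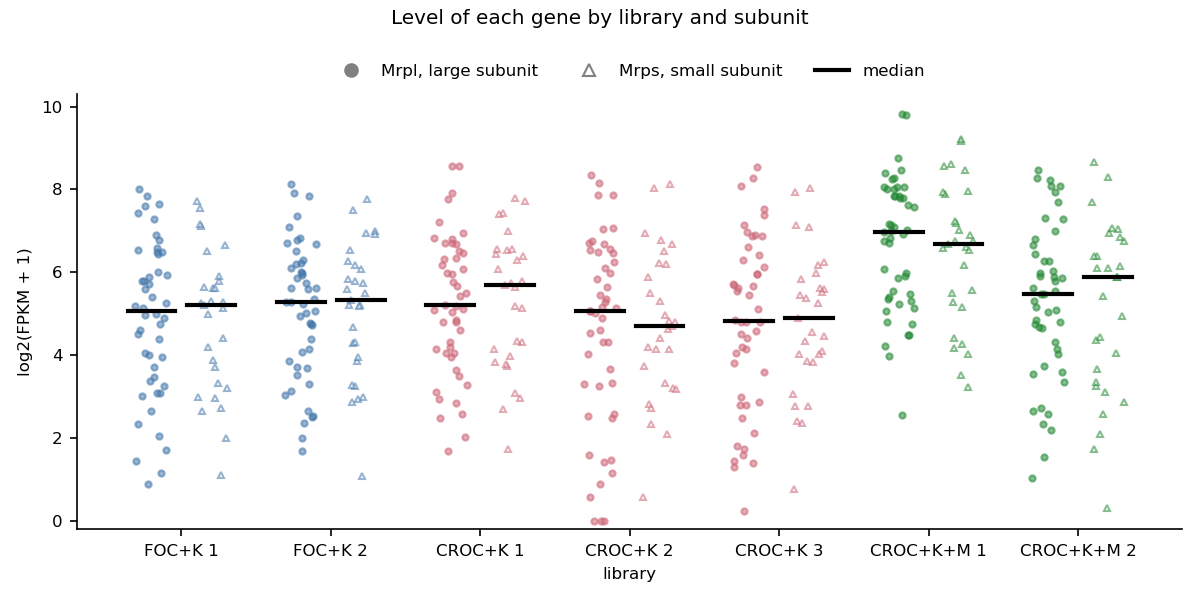
Level of each member on the log2(FPKM + 1) scale (vertical axis) in each of the 7 libraries (horizontal axis, coloured by group), with filled circles for the 48 Mrpl genes, open triangles for the 29 Mrps genes and a bar for each median. Both medians of CROC+K+M 1 lie above those of every other library, and the order of the subunits changes from library to library.

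The subunits kept a nearly fixed proportion. The summed FPKM of the large subunit was 1.88 and 1.73 times that of the small subunit in FOC+K, then 1.71, 1.85 and 1.99 times in CROC+K, and 1.85 and 1.71 times in CROC+K+M. These ratios overlap between the groups, although the large-subunit sum itself ran from 2725 to 8265. The difference of the subunit medians on the log2(FPKM + 1) scale had no fixed sign: large minus small was -0.14 and -0.05 in FOC+K, then -0.50, 0.37 and -0.07 in CROC+K, and 0.29 and -0.42 in CROC+K+M.

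Vitrification of the recipient oocyte is the difference between CROC+K and FOC+K. No member passed an adjusted p of 0.05 in limma, nor did any of the 12270 genes (0%). The median log2 fold change of the members was -0.08, against -0.03 over all genes tested, with 35 members higher (45.5%, against 47.3% of all genes) and 42 lower, or 17 and 60 when libraries were scaled to equal FPKM sums, which moved the median of all genes to -0.30. These fold changes use no melatonin library, so leaving out CROC+K+M 1 cannot alter them. At an unadjusted p under 0.05 there was 1 member higher, against 1.12% of all genes, and 0 lower, against 1.06%. Without CROC+K+M 1, which alters only the estimate of the spread, Mrps10, lower by -0.73, had an unadjusted p of 0.0498 in limma. Without CROC+K 1 the counts of higher and lower members were 7 (9.09%, against 6.11%) and 11 (14.3%, against 5.93%). Groups that did not overlap were seen in 12 members with higher values in CROC+K (15.6%, against 9.65% of all genes) and in 4 with lower ones (5.19%, against 9.47%).

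Among large-subunit genes the smallest p belonged to Mrpl48, a further protein of the central protuberance. Its FPKM was 109.1 and 103.9 in FOC+K, against 123.2, 284.6 and 307.9 in CROC+K. All CROC+K values were higher, with CROC+K 1 near the fresh group and the other two far above it. The log2 fold change was 1.05 ± 0.45 (SE), with an adjusted p of 0.9996 in limma, and it was 0.21 between CROC+K 1 and FOC+K, the libraries of high Rn45s. Mrpl48 shares exonic sequence with Rab6a on the opposite strand in GENCODE M21, and whether the authors' counting used strand is not given in the sources used here.

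Mrpl4, whose bacterial counterpart lines the exit tunnel, was at 86.4 and 67.6 in FOC+K, against 66.9, 34 and 27.1 in CROC+K. The groups did not overlap, but CROC+K 1 differed from FOC+K 2 by little. Its log2 fold change was -0.93 ± 0.41 (SE). Mrpl51 (0.52 ± 0.27), Mrpl2, a protein of the peptidyl transferase region (0.42 ± 0.24), and Mrpl43 (-0.60 ± 0.35) followed by p, each with groups that did not overlap. None of these 5 had an adjusted p below 0.9996 in limma.

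In the small subunit Mrps6, the counterpart of bacterial S6, was at 210.7 and 121.1 in FOC+K, against 127.4, 72.5 and 75.3 in CROC+K. CROC+K 1 fell between the FOC+K libraries, so the groups overlapped, and the log2 fold change was -0.84 ± 0.36 (SE). Mrps23 had a higher mean in CROC+K by 0.64 ± 0.31, Mrps14 by 0.40 ± 0.23 and Mrps21 by 0.53 ± 0.36 on the log2 scale.

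The CROC+K group was divided within itself. CROC+K 2 and 3 both lay below FOC+K 1, FOC+K 2 and CROC+K 1 in 31 members (40.3%, against 22.8% of all genes) and above all 3 in 16 (20.8%, against 21.1%). Genes on the low side included Mrpl36, one of the smallest ribosomal proteins, at 10 and 26.4 in FOC+K, 23.2 in CROC+K 1, and 2.01 and 3.38 in CROC+K 2 and 3. Mrps22, in which human mutations cause a mitochondrial translation defect, stood at 37.5 and 47.3 in FOC+K, with 67 in CROC+K 1, then 23.6 and 16.2. Among these 5 libraries both genes divided as Rn45s did and not by group. Rn45s was not the only feature that divided them so. Kdm4a, whose mRNA was injected, had an FPKM of 4051 and 4949 in CROC+K 2 and 3, against 497 to 2014 elsewhere among the 5. Their markers of the transient 2-cell programme summed to 1197 and 1748, against 191 to 676. Their summed FPKM was 797689 and 814958, against 552356 to 585039. Which of these features goes with the levels of the members was not tested. CROC+K 1 itself was above both FOC+K libraries in 46 members (59.7%, against 39.4%) and below both in 14 (18.2%, against 34.9%). Set alone against FOC+K, as the only CROC+K library of high Rn45s, it gave a median of 0.31 (all genes 0.03) with 59 members higher (76.6%, against 52.7%), and without it the median was -0.33 (all genes -0.04). The sign of the median thus depends on which CROC+K libraries are read. These counts by library were chosen after their values were seen.

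Melatonin was compared within vitrified oocytes, CROC+K+M against CROC+K. Of the 77 members, 68 had a higher mean with melatonin (88.3%, against 54.1% of all genes) and 9 a lower one, with a median log2 fold change of 0.90 against 0.06 over all genes tested. With equal FPKM sums 59 were higher and 18 lower, at a median of 0.65 against -0.14 over all genes. No member passed the adjusted threshold in limma (0% of all genes passed), and the smallest adjusted p among members was 0.408. An unadjusted p under 0.05 was reached by 26 members on the higher side (33.8%, against 6.69% of all genes) and by 0 on the lower (against 3.75%), and with equal FPKM sums by 16 (20.8%, against 3.9%) and 0 (against 6.06%). Both melatonin libraries lay above all 3 CROC+K libraries in 27 members (35.1%, against 12.3%) and below them in 0 (against 11.2%).

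Without CROC+K+M 1 the median was 0.33, with 54 members higher (70.1%, against 52.3%) and 23 lower. At an unadjusted p under 0.05 there were then 8 members higher (10.4%, against 4.02% of all genes) and 2 lower (2.6%, against 4.38%), and none passed the adjusted threshold in limma. The 8 were Mrpl22, Mrpl23, Mrpl42, Mrps6, Mrps12, Mrps14, Mrps18c and Mrps24, and the 2 were Mrpl44 and Mrps2. Without the other melatonin library the median was 1.43 and 25 members passed (32.5%, against 5.26% of all genes on the higher side), where the lone CROC+K+M 1 is assumed to vary like the other groups. All 25 calls and most of the median with melatonin thus rest on CROC+K+M 1.

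**Figure D2:**
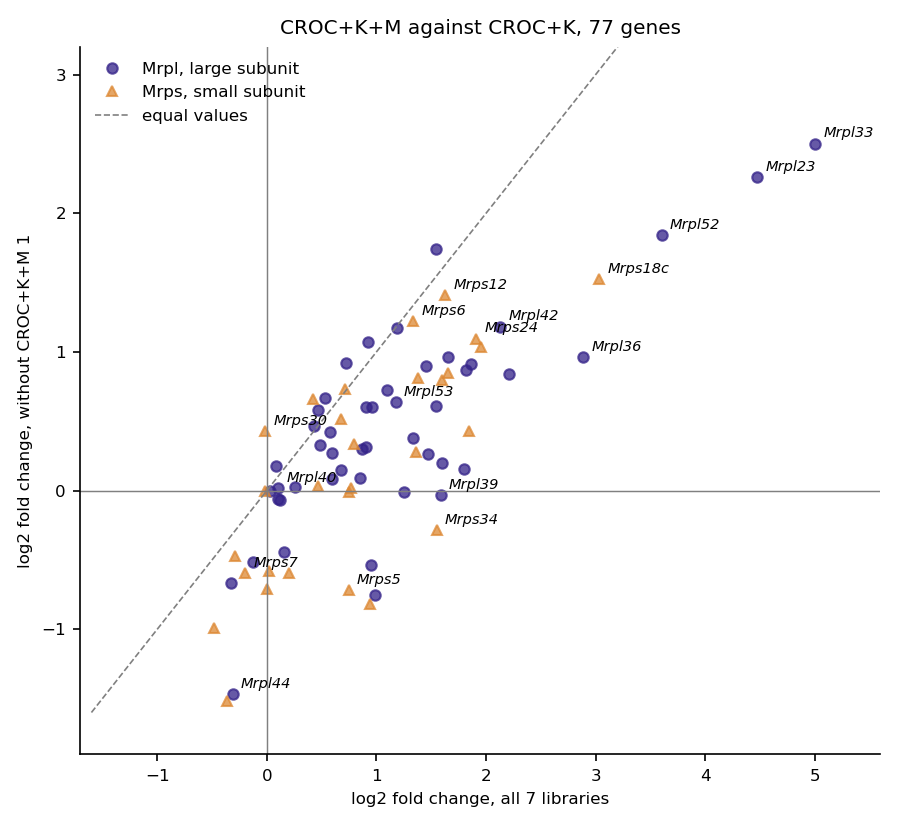
Log2 fold change of each member for CROC+K+M against CROC+K with all 7 libraries (horizontal axis) and without CROC+K+M 1 (vertical axis), circles for Mrpl and triangles for Mrps genes, the dashed line marking equal values. Mrpl33, Mrpl23 and Mrpl52 lie far to the right and well below the line, and Mrps12 and Mrps6 lie near it.

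Mrps12, whose bacterial counterpart sits at the decoding centre, had the smallest p of all members. Its FPKM was 38.4 and 54 in FOC+K, then 53.9, 30.5 and 37.4 in CROC+K, and 143.8 and 106.8 in CROC+K+M. Both melatonin libraries lay above every other library. The mean was 125.3 ± 26.2 (SD, n = 2) with melatonin and 40.6 ± 12 (SD, n = 3) without, a log2 fold change of 1.63 ± 0.34 (SE) with an adjusted p of 0.408 in limma. It was 1.41 without CROC+K+M 1. This is the gene with 4 CCAAT boxes in the printed stretch, at 156, 108, 68 and 19 bases before its start.

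Mrps6 was at 243.5 and 207.9 with melatonin against 127.4, 72.5 and 75.3 in CROC+K. The melatonin values were above all CROC+K values, but FOC+K 1, at 210.7, lay between them. Its log2 fold change was 1.33 ± 0.36 (SE), and 1.22 without CROC+K+M 1. Mrps6 shares exonic sequence with Slc5a3 on the same strand, so its reads may be shared with that gene.

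Mrps24, the counterpart of bacterial S3 at the mRNA entry, was at 377.7 and 121.8 with melatonin and at 83.7, 44.5 and 48.1 in CROC+K. Mrps18c, 1 of 3 mouse paralogs of bacterial S18, was at 570.2 and 69.8 against 34.2, 16.8 and 22.7. In both genes CROC+K+M 2 was above every library without melatonin, and CROC+K+M 1 was several times higher again. The log2 fold changes were 1.91 ± 0.50 and 3.03 ± 0.81 (SE), and 1.10 and 1.53 without CROC+K+M 1. The paralogs Mrps18a and Mrps18b had log2 fold changes of 1.60 ± 0.95 and 0.47 ± 0.41 (SE), with groups that overlapped, and of 0.80 and 0.03 without CROC+K+M 1. Mrps24 shares exonic sequence with the coding gene Urgcp on the same strand, so its reads may be shared with that gene.

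In the large subunit Mrpl42, a protein without a bacterial counterpart, had the smallest p. It was at 89.1 and 108.6 in FOC+K, then 112.9, 92.6 and 116.3 in CROC+K, and 903.6 and 243.8 in CROC+K+M. The 5 libraries without melatonin were close together and both melatonin libraries were above them. Its log2 fold change was 2.13 ± 0.51 (SE), with an adjusted p of 0.408 in limma, and 1.18 without CROC+K+M 1.

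Mrpl33, the counterpart of the small bacterial protein L33, was at 15.6 and 13.6 in FOC+K, then 15.7, 0 and 5.98 in CROC+K, and at 884.8 and 26.7 in CROC+K+M. CROC+K+M 1 was 33.2 times the highest of the other 6, and CROC+K 2 is listed at 0. Its log2 fold change of 5.00 ± 1.54 (SE) was the largest among members, and 2.5 without CROC+K+M 1. The fold depends on the added 1 and on the value listed at 0.

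Mrpl23, the counterpart of L23 at the mouth of the exit tunnel, was at 4.95, 0 and 1.62 in CROC+K and at 257.1 and 11 in CROC+K+M. Mrpl52 was at 11.6, 0.846 and 6.36 in CROC+K and at 227 and 18.9 in CROC+K+M. Both again had CROC+K 2 as the lowest library and CROC+K+M 1 as the highest. The log2 fold changes were 4.48 ± 1.24 and 3.60 ± 1.10 (SE), and 2.26 and 1.84 without CROC+K+M 1. Mrpl53 had a smaller and less uneven difference, 433.1 and 205.2 against 104.1, 130.1 and 167.2, a log2 fold change of 1.18 ± 0.38 (SE) and 0.64 without CROC+K+M 1. It shares exonic sequence with the coding gene Gm42688 on the same strand, so its reads may be shared too.

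**Figure D3:**
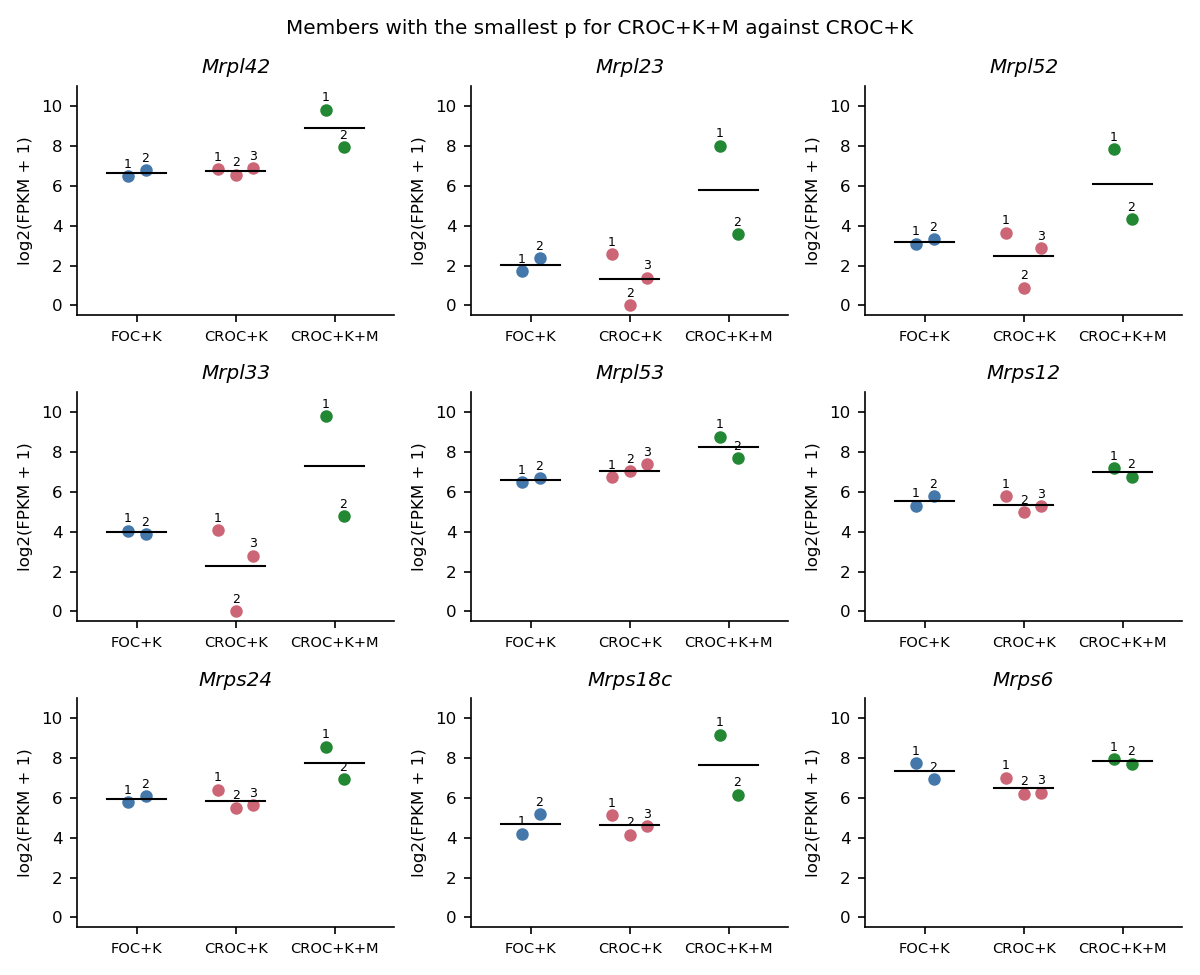
Level of the 5 Mrpl and 4 Mrps genes with the smallest p for CROC+K+M against CROC+K, on the log2(FPKM + 1) scale, by group, with 1 point per library numbered by replicate and a line at the group mean. In Mrpl33 and Mrpl23 CROC+K 2 is listed at 0 and CROC+K+M 1 lies far above the rest, while both melatonin libraries lie together in Mrps12 and Mrps6.

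Members named for their known biology gave mixed values. Mrps16 and Mrps34, in which human mutations impair mitochondrial translation, had log2 fold changes of 1.66 ± 0.51 and 1.55 ± 1.10 (SE), and 0.85 and -0.29 without CROC+K+M 1. Mrps34 shares exonic sequence with the coding gene Nme3 on the same strand, so its reads may be shared with that gene. Mrpl12, which is also reported to bind the mitochondrial RNA polymerase, had 0.68 ± 0.37, but 0.15 without that library, and Mrpl41, which has also been studied in apoptosis, 0.58 ± 0.46 and 0.42. Mrps7 and Mrps22 had -0.20 ± 0.33 and 0.02 ± 0.61 with all libraries and -0.60 and -0.58 without CROC+K+M 1. Mrps36, the member assigned to another complex, went from 1.36 ± 0.58 to 0.28.

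Mrpl44, a protein with an RNase III fold, went against the majority without CROC+K+M 1. It was at 8.59 to 17.5 in CROC+K and at 21.6 and 3.56 in CROC+K+M, so that the melatonin libraries were again the highest and the lowest of the 7. The log2 fold change of -0.31 ± 0.66 (SE) became -1.47 without CROC+K+M 1, with an adjusted p of 0.558 in limma.

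Large and small subunit had median log2 fold changes of 0.94 and 0.75 with all libraries and of 0.35 and 0.28 without CROC+K+M 1. The 48 members with a counterpart in the bacterial ribosome had a median of 1.05 and the 29 found only in mitochondria one of 0.59, or 0.55 and 0.16 without CROC+K+M 1. No test was made of these differences between subsets.

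Melatonin was also set against fresh oocytes. CROC+K+M against FOC+K gave a median of 0.74 (all genes 0.04), with 69 members higher (89.6%, against 52.9%) and 8 lower. With equal FPKM sums, which moved the median of all genes to -0.44, 49 were higher and 28 lower, at a median of 0.19. No member passed the adjusted threshold in limma (0% of all genes), the smallest adjusted p being 0.738. At an unadjusted p under 0.05 there were 18 members higher (23.4%, against 4.45%) and 0 lower (against 2%). With equal FPKM sums there were 4 higher (5.19%, against 1.38%) and 0 lower (against 9.82%), and without CROC+K+M 1 there were 7 higher (9.09%, against 2.62%) and 0 lower (against 2.53%). Groups did not overlap in 40 members on the higher side (51.9%, against 21.3%) and in 0 on the lower (against 19.8%). Without CROC+K+M 1 the median was 0.29, with 50 members higher (64.9%, against 51.3%) and 27 lower, and without the other melatonin library 18 members passed in limma (23.4%, against 4.41% of all genes on the higher side). This comparison shares its melatonin libraries with the one before, so the values of the 2 are not separate support.

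Mrps14 had the smallest p here, at 185.6 and 179.7 in FOC+K, beside 390.5 and 401 in CROC+K+M, with 220.9, 262.2 and 242.7 in CROC+K between them. The 3 groups did not overlap, and the melatonin libraries were almost equal. Its log2 fold change of 1.11 ± 0.25 (SE) was 1.13 without CROC+K+M 1, with an adjusted p of 0.738 in limma with all libraries. With libraries scaled to equal FPKM sums it was 0.52.

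Others with the smallest p against FOC+K were Mrpl42 (2.24 ± 0.56), Mrpl53 (1.64 ± 0.41), Mrpl57 (1.38 ± 0.40), Mrpl51 (1.01 ± 0.29), Mrpl14, a protein at the subunit interface that binds the assembly factor Malsu1 (1.20 ± 0.42), Mrps12 (1.42 ± 0.37), Mrps21 (1.32 ± 0.39) and Mrps18c (2.95 ± 0.89). Without CROC+K+M 1 these were 1.30, 1.10, 0.81, 0.85, 0.61, 1.21, 0.86 and 1.45. Each kept its sign in both settings.

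CROC+K+M 1 was the highest of the 7 libraries in 54 members (70.1%, against 26.7% of all genes), in 36 of 48 large-subunit and 18 of 29 small-subunit genes, and the lowest in 0 (against 18.1%). It was at least 2 times the highest of the other 6 in 32 members (41.6%, against 10.2%). The excess was greatest in Mrpl33 (33.2 times), Mrpl23 (23.4), Mrpl52 (12), Mrpl54 (9.14), Mrpl39 (8.88), Mrps18c (8.17) and Mrpl36 (7.24). Mrps30 showed no excess, at 71 in CROC+K+M 1, which is 0.424 times the highest of the other 6 and 0.547 times their median. It was lower still in CROC+K 3, at 62.4. Mrpl9, Mrps26 and Mrpl13 were at 0.534 to 0.586 times the highest of the other 6. Against the median of the other 6 they were at 1.73, 0.852 and 1.07 times, so Mrpl9 was not low in CROC+K+M 1. Mrpl54, Mrpl9, Mrps26 and Mrpl13 were chosen for the ratio to the highest library after the values were seen.

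**Figure D4:**
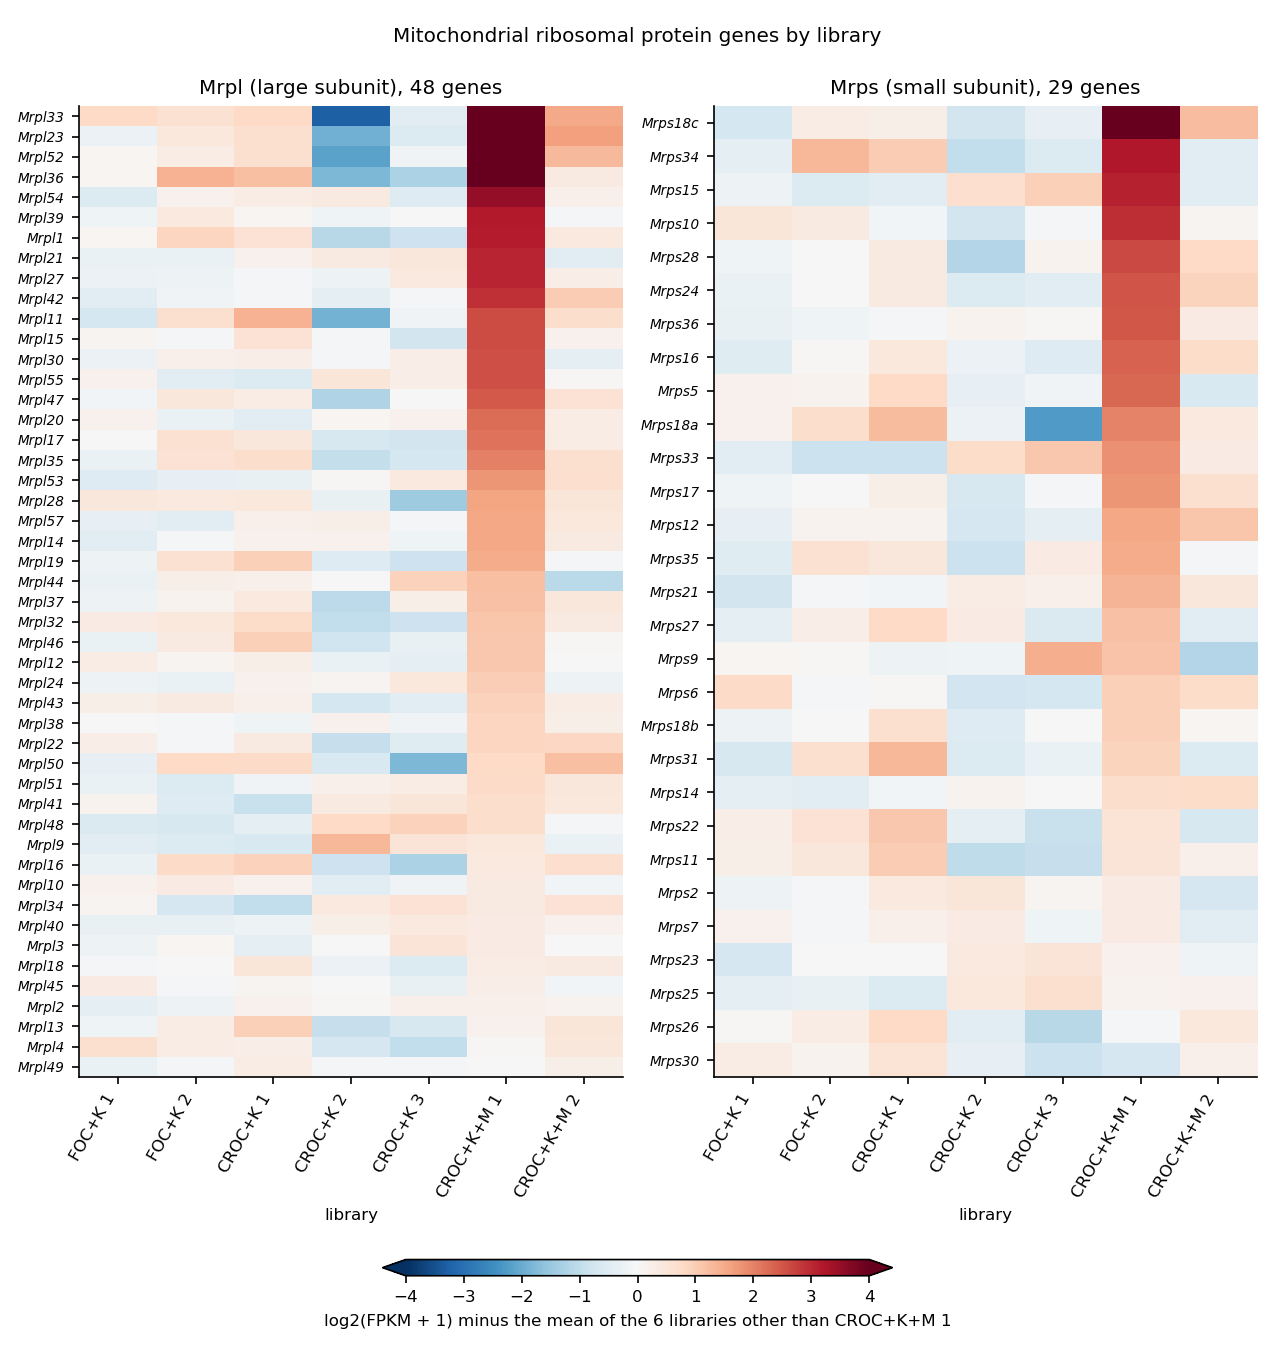
Log2(FPKM + 1) of all 77 members in each library, minus the mean of the 6 libraries other than CROC+K+M 1 (colour, red higher and blue lower), large subunit on the left and small subunit on the right, sorted by CROC+K+M 1. The red column of CROC+K+M 1 covers most members and fades towards the bottom, and CROC+K 2 and CROC+K 3 are blue in many of the genes near the top.

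The excess was larger in members that were low elsewhere. In the 26 members with the lowest mean over the other 6 libraries (FPKM 1 to 19.2), CROC+K+M 1 deviated from their mean by a median of 2.40 on the log2 scale. The 25 in the middle had 1.54 and the 26 highest (61.2 to 284) 0.74, whereas all genes tested in the same ranges of level had -0.02, -0.08 and 0.04. Across the 77 members the deviation correlated with the mean level at r = -0.50 and rho = -0.52, and with the logarithm of transcript length at r = -0.36. These describe genes of 1 library set and carry no p, and the level enters both sides of the first. Members are short, with a median length of 1047 bases against 1886 for the tested genes. With the trend of fold change with length removed, the melatonin median within vitrified oocytes was 0.83.

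CROC+K+M 2 gives the view of melatonin without that library. It was above all 3 CROC+K libraries in 28 members (36.4%, against 25.9% of all genes) and below all 3 in 9 (11.7%, against 23.2%). Against FOC+K it was above both libraries in 42 (54.5%, against 40%) and below both in 15 (19.5%, against 37.4%). The 9 below CROC+K were Mrpl21, Mrpl24, Mrpl30, Mrpl44, Mrps2, Mrps5, Mrps7, Mrps9 and Mrps23. A single library gives no spread, and these counts were chosen after the values were seen.

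6 mitoribosomal proteins with other names were also measured. Chchd1 was at 23.1, 18.1 and 32.5 in CROC+K and 467.6 and 30.9 in CROC+K+M, and Ict1, an integral peptidyl-tRNA hydrolase, at 5.47, 14.8 and 5.96 against 100.3 and 7.81. In these 2 the excess was again in CROC+K+M 1, whose partner library lay within the CROC+K range. Dap3 (0.49 ± 0.53), Aurkaip1 (0.71 ± 0.40), Ptcd3 (-0.02 ± 0.44) and Gadd45gip1 (0.16 ± 0.25) had smaller log2 fold changes with melatonin against CROC+K, which were -0.33, 0.23, 0.06 and 0.25 without CROC+K+M 1. The median of the 6 was 0.60, and 0.15 without CROC+K+M 1.

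The steps that surround the mitoribosome were followed through lists of genes. With melatonin against CROC+K, 14 translation factors had a median log2 fold change of 0.34 (-0.01 without CROC+K+M 1), 27 assembly factors 0.40 (0.34), 16 genes of aminoacyl-tRNA synthetases 0.45 (0.29) and 23 genes of mitochondrial DNA expression 0.08 (0.15). None of these genes passed the adjusted threshold in limma, in either direction. The elongation factor gene Gfm1 was higher by 0.99 ± 0.38 (SE; 0.65 without CROC+K+M 1), the assembly factor gene Malsu1 by 2.22 ± 0.77 (1.03 without CROC+K+M 1) and the mRNA-binding Slirp by 2.15 ± 0.44 (1.42). Ssbp1, the single-strand binding protein of mitochondrial DNA, was at 148.6, 57.7 and 33.6 in CROC+K and at 207.1 and 220.9 with melatonin, and Lars2, a leucyl-tRNA synthetase gene, had -0.90 ± 0.36 (-1.25).

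The products of mitochondrial translation join nuclear subunits of the respiratory chain, which were read as a further list. The 79 genes tested had a median of 1.67 (0.60 without CROC+K+M 1), with 76 of 79 higher and 46 of these at an unadjusted p under 0.05, beside 6.69% of all genes, or 65 and 16 without CROC+K+M 1, beside 4.02%. The 34 import genes had 0.85 (0.61), among them Timm10, a chaperone of the intermembrane space, at 48.4, 29.5 and 50.9 in CROC+K and 125.1 and 115.5 with melatonin. The 86 genes of the cytosolic ribosome had 0.81 (0.19), with 84 higher (64). Beside the counts of higher genes in this list and the respiratory chain, 54.1% of all genes tested were higher, and 52.3% without CROC+K+M 1. Of the regulators of nuclear genes for mitochondrial proteins, 10 were tested with a median of 0.12, Nrf1 having -0.60 ± 0.35 (-0.26). Esrra was at 0 to 0.202 without melatonin and at 1.01 and 1.12 with it. It entered the tests only through its melatonin values, so its fold change is not read. No gene of these lists passed the adjusted threshold in limma. Genes encoded in mitochondrial DNA have no row here, so the partner side of the mitoribosome was not analysed.

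**Figure D5:**
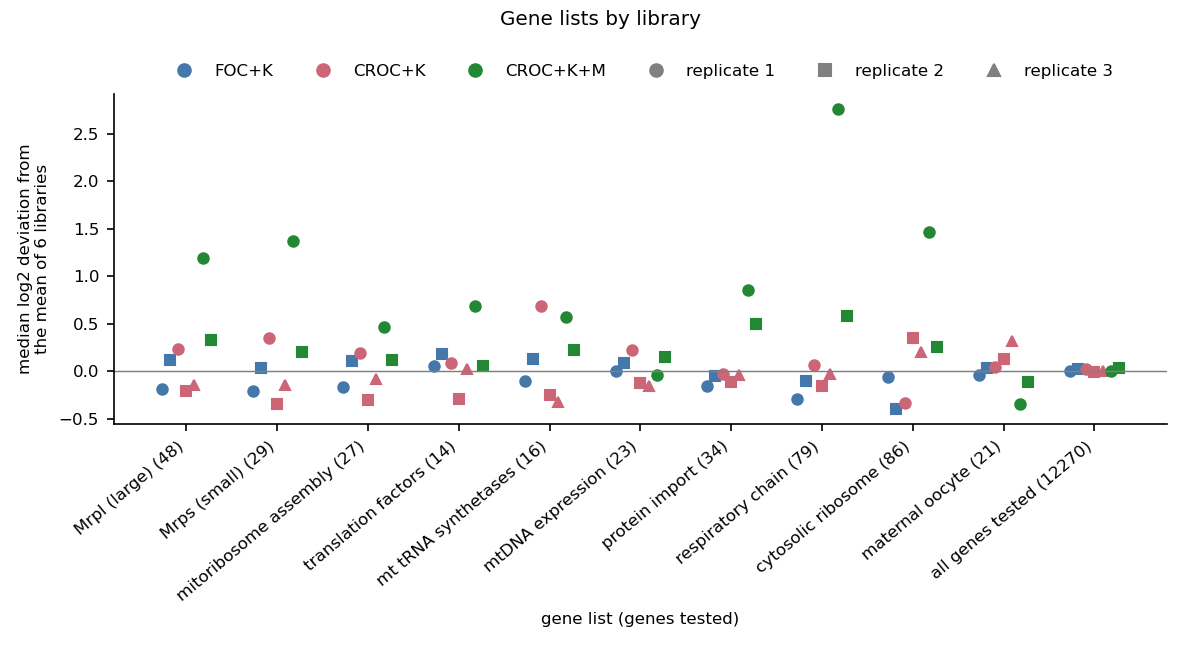
Median log2 deviation of each gene list from the mean of the 6 libraries other than CROC+K+M 1 (vertical axis) in each library (points, coloured by group and shaped by replicate), with the number of genes tested in brackets. CROC+K+M 1 stands highest in both subunits, mitoribosome assembly, translation factors, protein import, the respiratory chain and the cytosolic ribosome. It is not the highest in the tRNA synthetases, mitochondrial DNA expression or maternal oocyte genes. All genes tested stay near 0 in every library.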

How the data were processed

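Total RNA of pooled SCNT embryos was sequenced in 7 libraries, with cDNA from a SMARTer kit and libraries from a ScriptSeq v2 kit, per the labels' protocols. The authors deposited 1 FPKM value per gene and library. Tools in the submitters' processing notes are Cufflinks 2.2.1 and Cuffnorm, STAR 2.5.2b and R 3.3.2, on the build mm9. The annotation, the use of strand and any scaling between libraries were not given in the sources used here. FPKM is relative to each library's own total, so a few very high genes lower all others, and Cufflinks shares fragments between overlapping genes by a model. In GENCODE M21 exons of 32 of the 77 members overlap those of another gene, and 23 those of a coding gene.

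FPKM was used as deposited, as log2(FPKM + 1), which understates changes of low genes. Genes with FPKM of at least 1 in 2 libraries were tested, and 1282 rows of small RNAs and ribosomal RNA precursors were left out. Limma 3.58.1 with an intensity trend (R 4.3.3) fitted the group over all 7 libraries, with 4 residual degrees of freedom, two-sided tests and Benjamini-Hochberg adjustment over 12270 genes at 0.05. Errors are limma's SE or the SD. The fit was tested on simulated data. Tables and motif searches used Python 3.11.15.

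Named are, per comparison, the 5 Mrpl and 4 Mrps genes of smallest p and any past the threshold, the 4 highest and 4 lowest by mean, 15 members of known biology, and up to 2 genes per further list. The members and lists were chosen with earlier results of these data known. Equal replicate numbers in different groups were not taken as pairs. No pair of libraries held identical values. Alternatives were another pseudocount, no filter, quantile normalization, equal FPKM sums, array weights, a replicate block, removal of the length trend, each side of the Rn45s division and each library left out.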

Additional observations from a re-analysis of the deposited data

How the results depend on the processing

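For CROC+K against FOC+K no member passed the adjusted limma threshold under any alternative run, and none did in either melatonin comparison except without CROC+K+M 2. Leaving out 1 library at a time gave 0 to 25 members called with melatonin against CROC+K and 0 to 18 with melatonin against FOC+K. The member medians then ran from -0.33 to 0.08, from 0.33 to 1.43 and from 0.29 to 1.24 in the 3 comparisons, lowest in the melatonin comparisons without CROC+K+M 1 and highest without CROC+K+M 2. The large minus small subunit difference ran from -0.26 to 0.058, from -0.057 to 0.19 and from -0.18 to 0.33, so its sign was not stable when a library was left out. Its values with all libraries were -0.04, 0.19 and 0.11. Other alternatives moved it by more than 0.0883 in 4 cases. That yardstick is the SD within groups of the large minus small difference in median deviation from each gene's mean over the 7 libraries. It is not the spread of the differences of subunit medians per library, which ran from -0.50 to 0.37. For CROC+K against FOC+K it was -0.14 with a replicate block and -0.14 within the high-Rn45s libraries, where CROC+K 1 stands alone for CROC+K, with melatonin against CROC+K it was 0.34 with array weights, and with melatonin against FOC+K it was -0.012 with the length trend removed. The median for CROC+K+M against FOC+K was 0.19 with equal FPKM sums. The cause was not tested.

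With the replicate block the medians of the members were 0.01, 0.83 and 0.74 and 0 members were called. Deviations of same-numbered libraries from their group means correlated over the tested genes at -0.46 to 0.03. In a group of 2 libraries such deviations are mirror images of each other. These values therefore cannot decide whether libraries of the same number were handled together. CROC+K+M against FOC+K could not be run within 1 side of the Rn45s division, since its groups lie on opposite sides. Of 396 values of named members under alternatives, 384 kept their side of the threshold and 12 passed it without CROC+K+M 2, and none turned past the threshold in the other direction. With 2 or 3 pools a group, and a few fragments behind the lowest members, smaller differences were not detectable.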

Other observations

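Several members lie head to head with another gene in GENCODE M21, and their values were read side by side with no test, after the annotation had been seen. Mrps11 and Mrpl46, which overlap on opposite strands, belong to the small and the large subunit. Mrps11 was at 30.8 and 36.1 in FOC+K, then 52.7, 12.3 and 13.2 in CROC+K, and 37.6 and 30 in CROC+K+M. Mrpl46 was at 47.1 and 72.3, then 110.8, 32.3 and 46.1, then 119.9 and 58.3. CROC+K 1 was higher than both FOC+K libraries and both other CROC+K libraries in each of the 2 genes.

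Mrps12 and its neighbour Sars2, the mitochondrial seryl-tRNA synthetase gene, did not share a pattern by eye. Sars2 stayed between 0.887 and 2.07 in all 7 libraries, and its 2 melatonin values of 1.21 and 0.887 lay below CROC+K 1 at 1.56, whereas Mrps12 was highest in both melatonin libraries. Mrpl36 and Ndufs6, a gene of respiratory complex I, were both highest in CROC+K+M 1, at 191.1 and 1283, and both low in CROC+K 2 and 3, at 2.01 and 3.38 for Mrpl36 and 35.1 and 37.8 for Ndufs6. Overlapping exons can share reads, and whether the counting used strand is not given in the sources used here, so a shared pattern of such a pair is uncertain.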
